A study of Mus musculus with 8 samples.

Results

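The 10 genes described here are among the markers of alternative macrophage activation, and their transcript levels were read in every library of the series. They are Arg1, Mrc1, Retnla, Chil3, Clec10a, Mgl2, Cd163, Il10, Egr2 and Il4ra. They were chosen by symbol, all 10 are among the 24421 gene symbols listed in each count file, and all 10 were among the 13821 genes that passed the filter on low counts. RNA came from primary mouse macrophages in 8 libraries, and all mice were on a normal diet. The wild-type group (WT) has 3 libraries, the group labelled LysM-DKO has 3, and the group labelled ABCG1KO has 2. The series describes the LysM-DKO cells as an epsin double knockout, and epsins are endocytic adaptor proteins encoded by Epn1 and Epn2. LysM is the usual name of a Cre driver placed in the lysozyme gene Lyz2, which acts in myeloid cells, and the labels do not spell out the alleles. ABCG1 is a membrane transporter that exports cholesterol to lipoprotein particles. The tissue of origin, the age and the sex of the animals, and whether the libraries of a group came from separate mice are not given in the sources used here, so p-values measure the spread between these libraries, which may be partly technical.

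Alternative activation is the state that macrophages enter when interleukin-4 or interleukin-13 binds a receptor that contains the interleukin-4 receptor alpha chain, encoded by Il4ra. The receptor activates the transcription factor STAT6, which drives genes for an arginine-consuming enzyme (Arg1), secreted proteins (Retnla and Chil3), lectin receptors (Mrc1, Clec10a and Mgl2) and the transcription factor EGR2. Cd163 and Il10 are usually grouped with these genes, although they respond more to interleukin-10 and glucocorticoids than to interleukin-4. In the mouse, resident macrophages of serous cavities and macrophages recruited to them differ in several of these genes.

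Levels are given as CPM, counts scaled to a fixed library total after correction by the trimmed mean of M-values (TMM). Counts in genes ranged from 29567615 to 41888516 a library. A gene is called when its p-value from a single edgeR quasi-likelihood fit to the 8 libraries, adjusted by Benjamini-Hochberg across the 13821 genes, is under 0.05. The labels were checked on the targeted genes. Abcg1 was at 60.4 and 73.4 CPM in the ABCG1KO libraries against 345 to 405 CPM in WT. Epn1 was at 155 to 183 CPM in the libraries labelled LysM-DKO and at 191 to 230 CPM in WT, so most of its transcript was still counted, and Epn2 was at 5.67 to 13.2 CPM against 4.97 to 8.86 CPM, so these genes do not by themselves bear out that label. Lyz2 was at 6177 to 8105 CPM in LysM-DKO and at 13004 CPM or more in WT. All 8 genes of the macrophage marker list lay above 3 counts in every library. Ddx3y, on the Y chromosome, reached 81.6 CPM in LysM-DKO 1 and 92.6 and 94.8 CPM in ABCG1KO, against at most 0.0487 CPM in the other 5 libraries. In ABCG1KO against WT an effect of sex and an effect of genotype therefore cannot be told apart. Of the LysM-DKO libraries only LysM-DKO 1 had this level, so the comparisons of LysM-DKO with WT and with ABCG1KO are unbalanced in sex as well. Reads with several alignments made up 6.74% to 6.93% of the reads in ABCG1KO and 2.65% to 3.01% in the other libraries. Reads outside genes were 13.8% and 10.2% in ABCG1KO and 4.26% to 6.07% in the other libraries. Ambiguous reads were 0.665% and 0.614% against 0.873% to 0.980%. The part of these library differences in the gene levels was not tested.

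Arg1 encodes arginase 1, which hydrolyses arginine to ornithine and urea and so competes with nitric oxide synthase for its substrate (chromosome 10, 24915221 to 24927484, minus strand, GRCm38). It was at 65.6, 570.3 and 2.07 CPM in WT replicates 1, 2 and 3, 0.388, 88.5 and 2.45 CPM in the LysM-DKO libraries, and 497.9 and 145.1 CPM in ABCG1KO. WT 2, both ABCG1KO libraries and LysM-DKO 2 were high, WT 3 and LysM-DKO 3 and 1 were low, and the LysM-DKO and ABCG1KO groups did not overlap while both overlapped WT. These are 20654 reads in WT 2 against 80 in WT 3, and 3632 in LysM-DKO 2 against 16 in LysM-DKO 1, a gap far beyond counting error. Arg1 had a within-group standard deviation of 3.61 on the log2 scale, where the median over the 13821 genes tested was 0.299. Only 5 of these genes varied more within groups: the interferon-inducible GTPase genes Iigp1 and Gbp4, the interferon-inducible Ifi202b, and the sex-linked Xist and Ddx3y, named because of these values. Nos2, the nitric oxide synthase of classical activation, was also uneven, with 449 counts in WT 2, 24 in LysM-DKO 2 and at most 7 in every other library.

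No difference in Arg1 between groups exceeded this spread. For LysM-DKO against WT the log2 fold change was -2.80 (SE 2.07), with an adjusted p of 0.599 (edgeR, Benjamini-Hochberg). It was 0.60 (SE 2.14, adjusted p = 0.878, edgeR) in ABCG1KO against WT, and -3.40 (SE 2.23, adjusted p = 0.342, edgeR) in LysM-DKO against ABCG1KO. Single libraries set these values: without WT 2 the fold change of LysM-DKO against WT was -0.20, and without LysM-DKO 2 it was -7.23. In bulk RNA, fewer cells of a type and less RNA per cell cannot be told apart, for Arg1 and for every gene below.

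**Figure D1:**
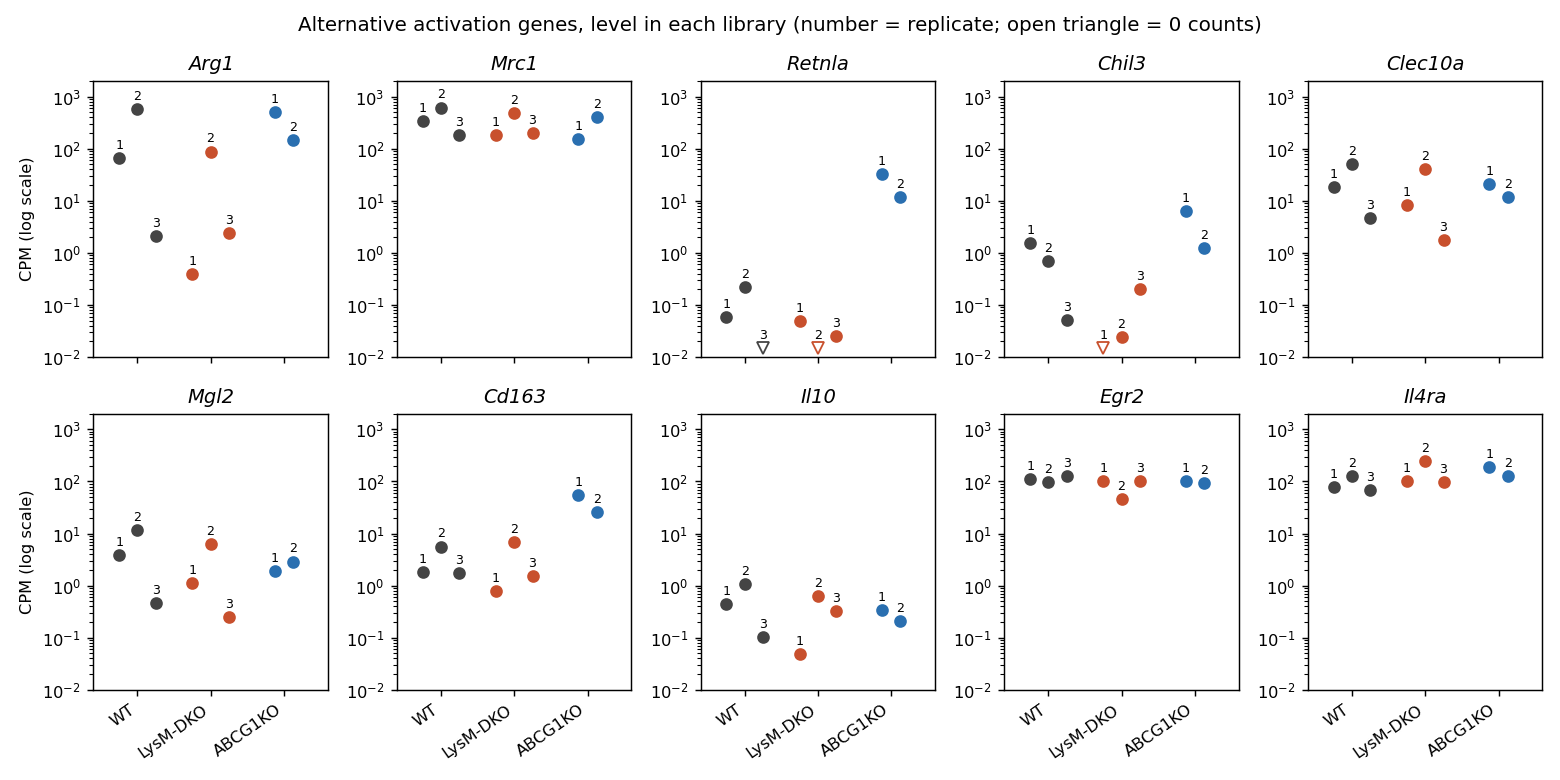
Level of each of the 10 genes in each library, in CPM on a log axis, with 1 point per library, the replicate number above it and an open triangle for a library with 0 counts. Arg1 runs from 2.07 to 570.3 CPM within WT, Retnla is above 0.221 CPM in the ABCG1KO libraries alone, and Egr2 and Il4ra lie within narrower ranges than Arg1 in every group.

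Of the lectin receptors, Mrc1 encodes the mannose receptor CD206, which takes up glycoproteins with terminal mannose (chromosome 2, 14229392 to 14332057, plus strand). Mrc1 was at 334, 619.8 and 182 CPM in WT, at 180.2, 477 and 199 CPM in the LysM-DKO libraries, and 154 and 404 CPM in ABCG1KO. Replicate 2 was the highest in every group, and all groups overlapped. Its fold changes were -0.41 (SE 0.58) for LysM-DKO and -0.44 (SE 0.65) for ABCG1KO against WT on the log2 scale, neither past the threshold (edgeR adjusted p = 0.803 and 0.687).

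Clec10a and Mgl2 encode macrophage galactose-type lectins, receptors for galactose and N-acetylgalactosamine, and are neighbours on the plus strand of chromosome 11 (70156197 to 70170834 and 70130329 to 70137550). Clec10a was at 18.6, 51.3 and 4.68 CPM in WT, at 8.19, 40.5 and 1.80 CPM in the LysM-DKO libraries, and 20.9 and 11.8 CPM in ABCG1KO. Mgl2 was at 3.81, 11.9 and 0.466 CPM in WT, at 1.11, 6.19 and 0.25 CPM in the LysM-DKO libraries, and 1.88 and 2.90 CPM in ABCG1KO. Both genes were highest in WT 2 and LysM-DKO 2 and lowest in LysM-DKO 3 and WT 3, with the ABCG1KO libraries between them, and all groups overlapped. Clec10a had 4.06 to 11.1 counts for each count of Mgl2. Their transcripts share sequence: 9.02% of the 50-base stretches of Clec10a and 13.1% of those of Mgl2 occur in another gene, each including the other, so reads from these stretches cannot be assigned. Against WT, the log2 fold changes in LysM-DKO were -0.56 (SE 1.11) for Clec10a and -1.09 (SE 1.25) for Mgl2, and those in ABCG1KO were -0.60 (SE 1.26) and -1.17 (SE 1.44). None passed the threshold, and the edgeR adjusted p-values were 0.862, 0.745, 0.781 and 0.622.

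Retnla encodes the secreted protein RELM-alpha, also called FIZZ1 (chromosome 16, 48842551 to 48844461, plus strand). It was at 33.1 and 11.8 CPM in ABCG1KO, from 1055 and 502 counts. The WT libraries held 2, 8 and 0 counts, and the LysM-DKO libraries 2, 0 and 1. Both ABCG1KO libraries therefore lay above all 6 others, in which Retnla was at or near the limit that a count of 0 allows, which is 3 counts or 0.0727 to 0.0879 CPM in these 6. The log2 fold change of ABCG1KO against WT was 7.88 (SE 1.00, adjusted p = 0.00218, edgeR with Benjamini-Hochberg). As a ratio of summed counts corrected for depth, Retnla was 228-fold higher in ABCG1KO than in WT, with an exact 95% interval of 124 to 477 that covers counting error only. Against LysM-DKO, which had 3 counts in all, the ratio was 855 with an interval of 292 to 4148 (adjusted p = 0.00163, edgeR). Between LysM-DKO and WT, with 3 and 10 counts in 3 libraries each, the fitted value is not read as a change in either direction. Over the 16 alternatives that gave Retnla a value, the log2 fold change was 6.95 to 9.50 in ABCG1KO against WT. It was -10.5 to -8.75 in LysM-DKO against ABCG1KO. In the alternatives without ABCG1KO 1 or ABCG1KO 2 the remaining library is assumed to vary like the other groups. Retnla passed the filter on low counts only through the ABCG1KO libraries, where it was high, so its calls are not separate from that selection. In a fit of LysM-DKO and WT alone it did not pass.

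Chil3 encodes the chitinase-like secreted protein Ym1 (chromosome 3, 106147554 to 106167564, minus strand). It was at 6.27 and 1.23 CPM in ABCG1KO, at 1.52, 0.690 and 0.0518 CPM in WT, and at 0, 0.0244 and 0.2 CPM in LysM-DKO. ABCG1KO 1 was the highest library and WT 1 was above ABCG1KO 2, so ABCG1KO overlapped WT but not LysM-DKO. The log2 fold change of ABCG1KO against WT was 2.31 (SE 1.34, adjusted p = 0.279, edgeR). For LysM-DKO, with 9 counts against 79 in WT, it was -3.29 (SE 1.43, adjusted p = 0.428, edgeR). Chil3 passed the filter, which asks for 2 libraries over 0.257 CPM, in WT 1 and WT 2 and in ABCG1KO, while in a fit of LysM-DKO and WT alone, where the filter asks for 3, it did not pass. LysM-DKO against ABCG1KO gave -5.59 (SE 1.57) and an edgeR adjusted p of 0.0510, just outside the threshold. Of 16 alternatives, 10 also left Chil3 uncalled in this comparison. It was called with DESeq2 (0.00121), with edgeR's default weighting of the spread (0.0498) and with scaling by library size only (0.0497). The edgeR fits without WT 3 or LysM-DKO 3 also called it (0.0398 and 0.0486). The fit without ABCG1KO 2, which leaves 1 library in that group, is not counted as support. For Chil3, 26.9% of the 50-base stretches of its transcripts also occur in Chil4 or Gm6522. Chil4 itself held at most 1 count in any library.

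Cd163 encodes the scavenger receptor for haemoglobin bound to haptoglobin (chromosome 6, 124304656 to 124330527, plus strand). It was at 55.7 and 26.4 CPM in ABCG1KO, at 1.82, 5.63 and 1.76 CPM in WT, and at 0.775, 6.97 and 1.52 CPM in LysM-DKO. Both ABCG1KO libraries lay above all 6 others, and within WT and LysM-DKO replicate 2 was the highest. Cd163 was higher in ABCG1KO than in WT by 3.74 on the log2 scale (SE 0.943, adjusted p = 0.0357, edgeR with Benjamini-Hochberg), and lower in LysM-DKO than in ABCG1KO, with a log2 fold change of -3.73 (SE 0.942, adjusted p = 0.0403, edgeR). The call against WT was lost without WT 1, WT 3, ABCG1KO 1 or ABCG1KO 2 (adjusted p = 0.108, 0.0999, 0.144 and 0.0551) and with no filter on low counts (0.0698), at log2 fold changes of 3.10 to 4.17. The call between the knockouts was lost in 9 of 17 alternatives, 6 of which left out 1 library (WT 1, WT 3, LysM-DKO 1, LysM-DKO 3, ABCG1KO 1 or ABCG1KO 2), with adjusted p-values up to 0.176. LysM-DKO against WT gave 0.01 (SE 0.832), with an edgeR adjusted p of 0.998. The sign of that estimate turned under 9 alternatives.

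The bases before the start sites of Retnla, Chil3 and Cd163, the 3 genes whose highest library was ABCG1KO 1, are shown because STAT6 and its partner C/EBP-beta are known to act close to the starts of Retnla and Chil3. RefSeq promoters (GRCm38.p6) matched 7 of the 10 genes, and Arg1, Clec10a and Il10 are named only. Each sequence is read 5′ to 3′ in the direction of transcription and ends before the annotated gene: Retnla chr16:48842359-48842550 on the plus strand, Chil3 chr3:106167565-106167814 on the minus strand and Cd163 chr6:124304401-124304650 on the plus strand. Capitals mark matches to 3 motifs.
Retnla: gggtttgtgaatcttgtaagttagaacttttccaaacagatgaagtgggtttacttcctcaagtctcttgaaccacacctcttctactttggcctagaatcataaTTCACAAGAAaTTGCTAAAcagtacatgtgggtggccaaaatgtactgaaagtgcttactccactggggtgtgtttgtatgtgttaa
Chil3: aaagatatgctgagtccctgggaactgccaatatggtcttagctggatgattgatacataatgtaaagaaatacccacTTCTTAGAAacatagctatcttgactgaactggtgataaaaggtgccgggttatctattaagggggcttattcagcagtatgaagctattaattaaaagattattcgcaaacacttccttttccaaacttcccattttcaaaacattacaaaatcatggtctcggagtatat
Cd163: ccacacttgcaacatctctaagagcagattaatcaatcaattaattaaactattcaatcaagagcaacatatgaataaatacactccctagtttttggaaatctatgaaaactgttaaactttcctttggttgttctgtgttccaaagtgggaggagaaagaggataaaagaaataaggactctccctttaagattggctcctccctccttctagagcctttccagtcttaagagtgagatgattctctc

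The motifs searched on both strands of the 250 bases before each RefSeq start were TTCNNNNGAA, the form that STAT6 prefers, TTCNNNGAA, the form shared by other STAT proteins, and TTGCNNAA, a C/EBP form. Retnla had TTCACAAGAA, with its first base at -145 from the RefSeq start, and TTGCTAAA at -134, separated from it by 1 base. Chil3 had TTCTTAGAA at -172. No match was found in the windows of Cd163, Mrc1, Mgl2, Egr2 or Il4ra. Of 32851 such windows of mouse genes, 5.85% held TTCNNNNGAA, 7.02% TTCNNNGAA and 9.56% TTGCNNAA. These matches describe the letters of the windows, and no binding was measured here.

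Il10 encodes interleukin-10, a cytokine that dampens inflammation (chromosome 1, 131019845 to 131024974, plus strand), and it was the scarcest gene per length in ABCG1KO. It was at 0.440, 1.08 and 0.104 CPM in WT, at 0.0485, 0.634 and 0.325 CPM in the LysM-DKO libraries, and 0.345 and 0.212 CPM in ABCG1KO, from 2 to 39 counts a library. WT 2 and LysM-DKO 2 were the highest and LysM-DKO 1 the lowest, and all groups overlapped. The log2 fold changes against WT were -0.68 (SE 1.03) for LysM-DKO and -0.95 (SE 1.19) for ABCG1KO, neither past the threshold (edgeR adjusted p = 0.817 and 0.627).

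Egr2 encodes a zinc-finger transcription factor induced by interleukin-4 (chromosome 10, 67535475 to 67542188, plus strand). It was at 110.2, 97.0 and 129.8 CPM in WT, at 100.3, 45.7 and 101 CPM in the LysM-DKO libraries, and 100.1 and 93.5 CPM in ABCG1KO. LysM-DKO 2 alone was low, the other 7 libraries lay between 93.5 and 129.8 CPM, and all groups overlapped. Egr2 varied least of the 10 genes, with a within-group standard deviation of 0.437 on the log2 scale, and its log2 fold changes against WT were -0.45 (SE 0.282) in LysM-DKO and -0.22 (SE 0.317) in ABCG1KO (edgeR adjusted p = 0.551 and 0.684).

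Il4ra, the receptor chain (chromosome 7, 125552120 to 125579474, plus strand), was at 77.1, 127.7 and 69.9 CPM in WT, at 102, 251 and 96.7 CPM in the LysM-DKO libraries, and 193 and 126 CPM in ABCG1KO. LysM-DKO 2 and ABCG1KO 1 were the highest and WT 3 and WT 1 the lowest, and WT overlapped both other groups through WT 2. The log2 fold change was 0.71 (SE 0.415, adjusted p = 0.529, edgeR) in LysM-DKO and 0.80 (SE 0.456, adjusted p = 0.272, edgeR) in ABCG1KO against WT. With WT 2 and LysM-DKO 2 both left out, an alternative added after the data were seen, Il4ra was called higher in ABCG1KO than in WT (1.12, SE 0.236, adjusted p = 0.0433, edgeR). This was the only 1 of 17 alternatives to call it. Leaving out WT 2, the WT library that overlapped ABCG1KO, separates the groups by itself, so the call is not read as a difference. An annotated antisense gene, Gm44876, overlaps 571 exon bases of Il4ra, and reads of the pair cannot be told apart where the strand setting is not known.

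Per kilobase of exon, the order of the 10 genes was led in WT by Arg1 with a mean of 95.4 CPM per kilobase (0.929 to 256), followed by Mrc1 with 59.5 (28.6 to 97.3), Egr2 with 33.1 (28.6 to 38.2) and Il4ra with 15.3 (11.6 to 21.3). Clec10a (8.57), Mgl2 (2.57), Cd163 (0.562), Chil3 (0.463), Il10 (0.412) and Retnla (0.156) came after them. The range of Arg1 over the WT libraries covered those of Mrc1, Egr2, Il4ra and Clec10a, and from Cd163 to Retnla neighbours overlapped, while Egr2 and Il4ra did not overlap. In LysM-DKO, Mrc1 led with 44.8 CPM per kilobase and Arg1 followed Il4ra and Egr2 with 13.7. In ABCG1KO, Arg1 led with 144 CPM per kilobase, and Retnla, last in the other groups, came next after Mrc1 with 37.5 (19.8 and 55.2).

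In LysM-DKO against WT, 0 of the 10 genes passed the edgeR threshold, where 0.0362% of all genes tested did, and DESeq2 called 0 as well, against 2.21% of the genes for which it gave an adjusted p. At an unadjusted p under 0.05 the edgeR count was 1 of 10, Chil3, against 11.7% of all genes tested. Groups did not overlap for 0 of the 10 genes, where this held for 21.0% of all genes tested. Leaving out Retnla and Chil3, which have no value in the fit of these groups alone, the estimates lay below 0 for 6 of 8 genes, the exceptions being Il4ra and Cd163, and their median was -0.50 on the log2 scale against 0.02 for all genes tested. None of these differences exceeded the spread between libraries.

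In ABCG1KO against WT, 2 of the 10 genes were called, Retnla and Cd163, and both were higher. Retnla passed the filter only through the ABCG1KO libraries, here and in the comparison of the knockouts. Over all genes tested, 16.0% were called in either direction and 7.21% were called higher. The groups did not overlap for the same 2 genes, 2 of 10, where 48.2% of all genes tested did not overlap. The estimates of the other 8 genes lay on either side of 0, with 5 of the 10 below it, and the median was 0.19 on the log2 scale, or -0.22 without Retnla, against 0.01 for all genes.

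In LysM-DKO against ABCG1KO, the same ABCG1KO libraries enter, and again Retnla and Cd163 were called, both lower in LysM-DKO. Here 13.4% of all genes tested were called, and 5.64% of all genes tested were called lower in LysM-DKO. Arg1, Retnla, Chil3 and Cd163 did not overlap between the groups, which is 4 of 10 genes and near the 48.2% of all genes tested. The estimates of Mrc1, Clec10a and Mgl2 on the log2 scale were 0.03, 0.04 and 0.07, with SE of 0.647, 1.24 and 1.39, and these errors leave differences in either direction possible.

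**Figure D2:**
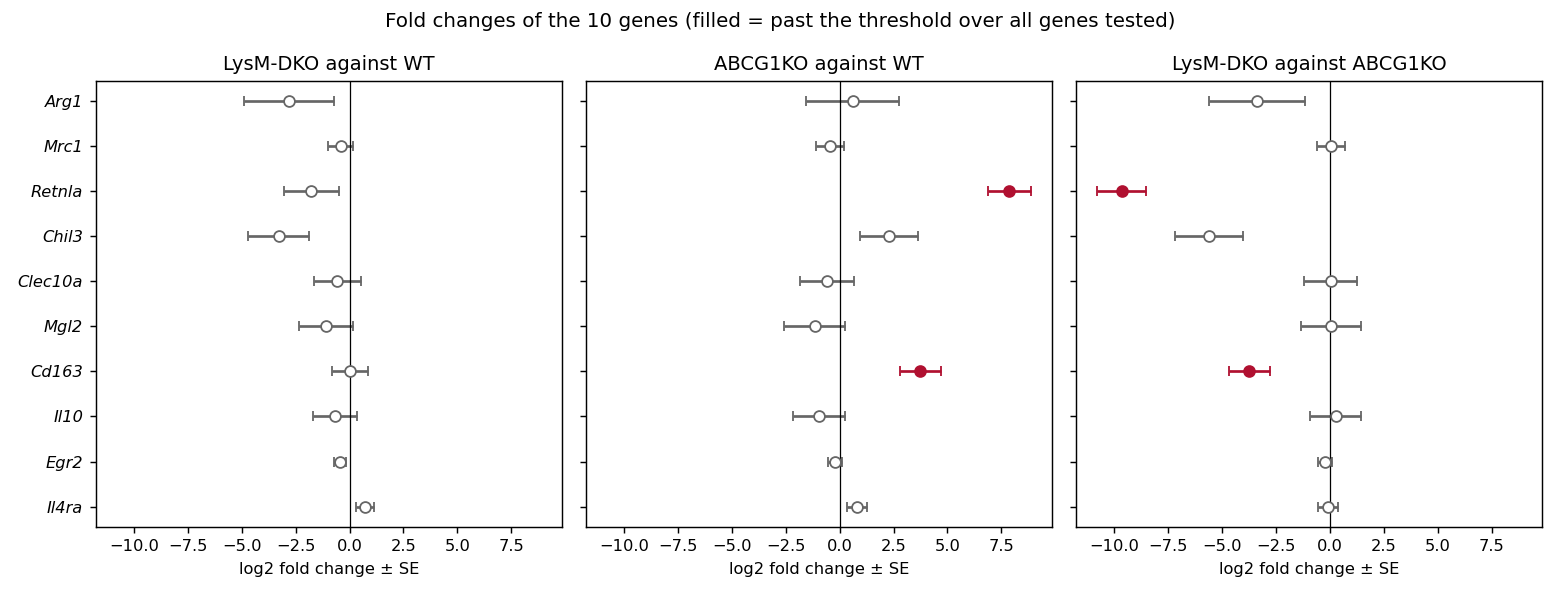
Log2 fold change of each gene with its standard error in the 3 comparisons, with filled points for genes past the adjusted threshold over all genes tested. Retnla and Cd163 are the filled points, at 7.88 and 3.74 in ABCG1KO against WT, and the error bars of Arg1 extend over more than 2 units to either side in all 3 comparisons.

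Several of these genes shared an order of the WT and LysM-DKO libraries that the genotype labels do not give. WT 2 and LysM-DKO 2 were each the highest of their group for 7 of the 10 genes (Arg1, Mrc1, Clec10a, Mgl2, Cd163, Il10 and Il4ra), and this was so for 14.4% of all genes tested. Over the 6 libraries, Arg1, Mrc1 and Il10 had an identical order, from WT 2 through LysM-DKO 2, WT 1, LysM-DKO 3 and WT 3 to LysM-DKO 1. Clec10a and Mgl2 shared an order that began in the same way and went on with LysM-DKO 1, WT 3 and LysM-DKO 3. Egr2 ran the other way, in the exact reverse of the order of Il4ra. Retnla and Chil3 also departed from it: Retnla was highest in WT 2 but had 0 counts in LysM-DKO 2, and Chil3 was highest in WT 1 with LysM-DKO 2 at 1.60% of that library. The drop was steep for Arg1, where LysM-DKO 2 stood at 15.5% and WT 3 at 0.363% of WT 2, and shallow for Mrc1, where the lowest library, LysM-DKO 1, kept 29.1% of WT 2. Of the ABCG1KO libraries, replicate 1 was higher in Arg1, Retnla, Chil3, Clec10a, Cd163, Il10, Egr2 and Il4ra, and replicate 2 in Mrc1 and Mgl2.

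**Figure D3:**
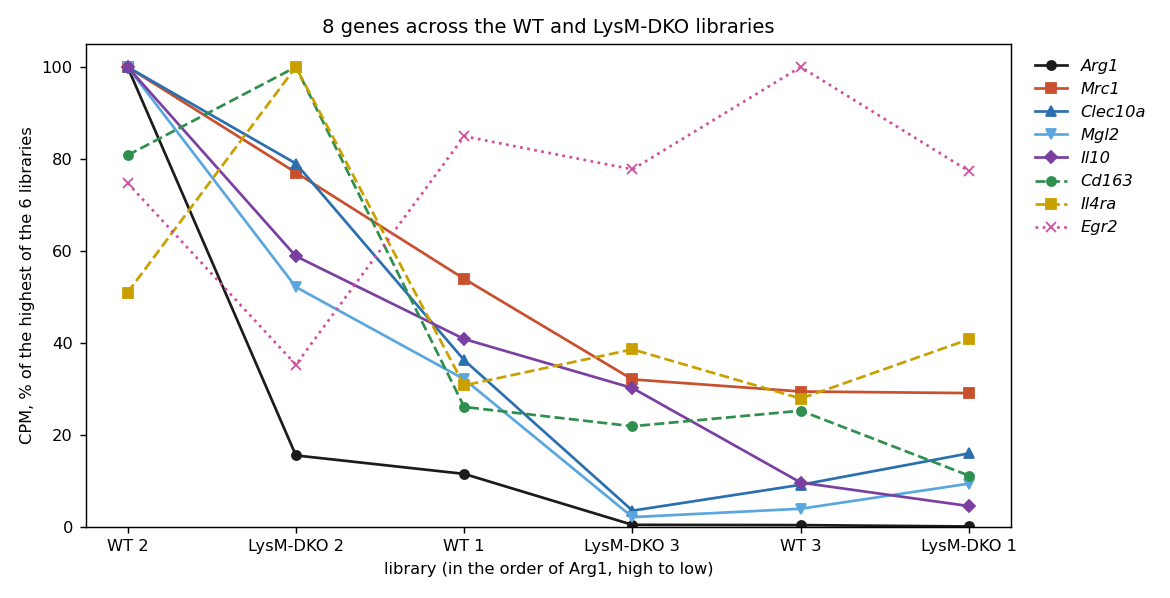
CPM of 8 genes in the 6 WT and LysM-DKO libraries, without Retnla and Chil3, each of which has a library at 0 counts, as a percentage of the highest of these libraries, with the libraries in the order of Arg1 from high to low. Arg1, Mrc1 and Il10 fall at every step, Clec10a and Mgl2 turn up again at the right, Il4ra and Cd163 peak in LysM-DKO 2, and Egr2 has its minimum there at 35.2%.

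Markers of other cell populations followed this library order in part. In the list of 10 markers of resident large peritoneal macrophages, 5 (Timd4, Selp, Vsig4, Alox15 and Lbp) were also highest in WT 2 and LysM-DKO 2. For this and the lists below, the share over all genes tested was 14.4%. The lists count every listed gene in the files, also those that failed the filter on low counts. Of the 8 T cell markers 6 were tested, and of the 7 eosinophil markers 3. The whole list summed to 1080.3, 905 and 975 CPM in WT, to 554, 560.4 and 933 CPM in the LysM-DKO libraries, and to 1948 and 791 CPM in ABCG1KO, so with Cd9 included WT 2 was the lowest WT library and ABCG1KO 2 lay below WT. Without the broadly expressed Cd9, the list summed to 63.5, 143 and 28.2 CPM in WT, to 8.36, 77.9 and 55.2 CPM in the LysM-DKO libraries, and to 1606 and 349 CPM in ABCG1KO. B cell markers without Cd22 summed to 7.36, 32.6 and 2.54 CPM in WT, but to 0.0242, 1.41 and 1.50 CPM in LysM-DKO. Ms4a1 had 253 counts in WT 2, but 6 in LysM-DKO 2 and 9 in LysM-DKO 3. Both libraries were highest for 2 of 7 B cell, 1 of 7 eosinophil and 0 of 7 neutrophil markers. It was 2 of 8 in each of the mast cell, dendritic cell and fibroblast and mesothelial lists. Of the macrophage and the small peritoneal macrophage markers it was 3 of 8 each. Of 20 genes of classical activation, 11 were highest in both libraries, Cxcl9, Cxcl10, Cd38 and Cd86 among them. Of the T cell markers, 5 of 8 were, at sums of 6.85 CPM in WT 2 and 7.07 CPM in LysM-DKO 2 against 2.17 to 4.02 CPM in the other 4 libraries. The part of these cells in the levels of Arg1 and the lectin genes was not tested.

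Markers also differed between ABCG1KO and the other groups, some in the direction of Retnla and Cd163 and some against it. In ABCG1KO against WT, 7.21% of all genes tested were called higher and 16.0% in either direction. Of the resident macrophage list, Prg4, Alox15 and Timd4 were called higher in ABCG1KO than in WT and Cd9 lower (edgeR), and all 10 genes were above 3 counts in both ABCG1KO libraries. Of the list of monocyte-derived small peritoneal macrophages, 2 of 8 were called higher, the chemokine receptor Ccr2 (4.61, SE 0.660) and Ly6c2 (5.89, SE 1.44), and Itgax was called lower (-3.17, SE 0.571). The whole list summed to 484 and 610.0 CPM in ABCG1KO, below the 1283 to 2412 CPM of WT and the 703 to 1059 CPM of LysM-DKO. Without Itgax it summed to 375 and 304 CPM in ABCG1KO, to 36.0 to 152 CPM in WT and to 56.1 to 397 CPM in LysM-DKO. Mast cell markers summed to 47.8 and 8.33 CPM in ABCG1KO and to at most 3.23 CPM elsewhere, with Kit called higher. Outside ABCG1KO, neither Kit nor Ly6c2 reached the 0.257 CPM of the filter on low counts in 2 libraries. Both passed it only with the ABCG1KO libraries, where they were high, so these calls are not separate from that selection. Dendritic cell markers summed to 13.1 and 13.6 CPM against at most 8.95 CPM elsewhere, with 0 of 5 called. In this list Cd209a, Zbtb46 and Ccr7 were higher in both ABCG1KO libraries than in any other. Clec9a went the other way, at 0.314 and 0.212 CPM in ABCG1KO and 0.674 to 5.96 CPM elsewhere. Of the 7 eosinophil markers, Siglecf was at 3.42 and 6.11 CPM in ABCG1KO and 2.29 to 29.6 CPM elsewhere, and Ccr3 at 0.470 and 1.25 CPM against 0.0969 to 1.71 CPM elsewhere. Il5ra held at most 37 counts, Ear1 at most 5, Epx and Prg2 at most 2 and Ear6 0 in any library. The part of these cells in the levels of Retnla and Cd163 was not tested.

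Eosinophil markers summed to 4.08 and 7.48 CPM in ABCG1KO and 3.17 to 30.2 CPM elsewhere, and without Siglecf to 0.659 and 1.37 CPM against 0.0969 to 2.79 CPM. T cell markers lay at 4.11 and 5.92 CPM in ABCG1KO. Neutrophil markers summed to 1.36 to 6.08 CPM over the 8 libraries. Fibroblast and mesothelial markers summed to 164 CPM in ABCG1KO 1 and to 680.2 CPM or more in the other libraries, with 0 of 8 called in any comparison by edgeR. Of the 8 macrophage markers, Adgre1, Csf1r and Cd14 were called higher in ABCG1KO than in WT and Cd68 lower, where 16.0% of all genes tested were called. The whole B cell list summed to 43.9 and 53.0 CPM in ABCG1KO and to 94.9 to 145 CPM elsewhere. Without Cd22 it summed to 16.2 and 2.81 CPM in ABCG1KO, and Cd22 itself was called lower there than in WT.

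**Figure D4:**
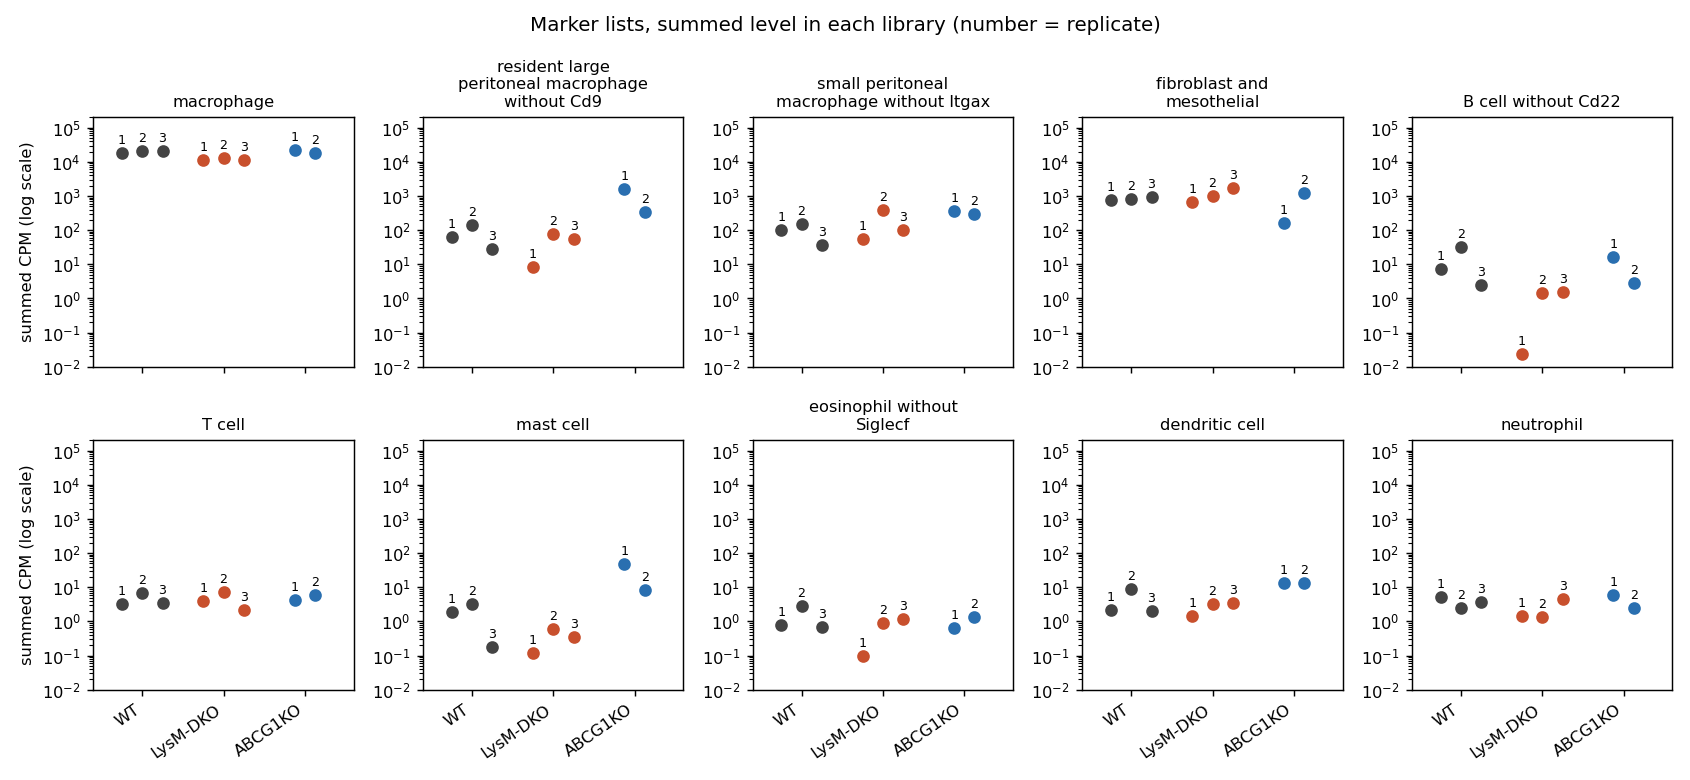
Summed CPM of 10 marker lists in each library, on a log axis, with 1 point per library and the replicate number above it. The resident list is drawn without Cd9, the small peritoneal list without Itgax, the B cell list without Cd22 and the eosinophil list without Siglecf. With Itgax, the small peritoneal list was lowest in ABCG1KO, at 484 and 610.0 CPM, against 703 CPM or more in the other libraries. With Cd9, the resident list was at 1948 and 791 CPM in ABCG1KO and 905 to 1080 CPM in WT. With Cd22, the B cell list was at 43.9 and 53.0 CPM in ABCG1KO and 116 to 145 CPM in WT. With Siglecf, the eosinophil list was at 4.08 and 7.48 CPM in ABCG1KO and 15.8 to 30.2 CPM in WT. The resident peritoneal list without Cd9 reaches 1606 CPM in ABCG1KO 1, and the mast cell list is highest in the ABCG1KO libraries. The macrophage list is at 10992 to 13064 CPM in LysM-DKO, 18043 to 21157 CPM in WT and 18391 to 22244 CPM in ABCG1KO. Most of it is Lyz2, at 6177 to 8105 CPM in LysM-DKO and 13004 to 15710 CPM in WT.

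The genes around the 10 markers were read from 6 lists, which were chosen with results of these data known. In LysM-DKO against WT, edgeR called 0 of the 94 genes tested in the 6 lists, 17 had an unadjusted p under 0.05, and DESeq2 called 9. The 9 were Batf3, Ccl22, Ch25h, Ear2 and Matk among the other alternative activation targets, Sat1, Slc7a1 and Slc7a7 of arginine and polyamine metabolism, and the lectin Clec4a2. Over all genes the matching shares were 0.0362% called by edgeR, 11.7% with an unadjusted p under 0.05 and 2.21% called by DESeq2.

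Of the ligands, Il4 held at most 6 counts and Il13 at most 3 in any library. Of the receptor partners, Il13ra1 was at 36.5 to 52.9 CPM and Il2rg, the common gamma chain, at 52.6 to 101 CPM in WT and LysM-DKO and at 165 and 131 CPM in ABCG1KO. Of 17 tested genes of interleukin-4 and interleukin-13 signalling, 3 were called higher and 1 lower in ABCG1KO than in WT, against 16.0% called over all genes. The nuclear receptor gene Pparg, which sustains alternative activation, was lower (-1.74, SE 0.35, adjusted p = 0.0154, edgeR), while Ppard (0.61, SE 0.159) and Jak2 (0.55, SE 0.154) were higher.

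Of 20 tested further targets of alternative activation, 3 were called higher in ABCG1KO than in WT and 4 lower. Of all genes tested, 7.21% were called higher and 16.0% in either direction. Ear2, a ribonuclease gene, was higher by 4.51 (SE 0.627) and Fn1, fibronectin, by 2.25 (SE 0.374) on the log2 scale. Atp6v0d2, a subunit of the vacuolar proton pump, changed by -3.10 (SE 0.565), from 1351 to 1748 CPM in WT to 72.7 and 286 CPM. The edgeR adjusted p-values of these 3 genes were 0.00318, 0.00680 and 0.0107. The median of the list was 0.21 against 0.01 for all genes tested.

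Of 13 tested genes around interleukin-10, 3 were called higher in ABCG1KO than in WT and 0 lower: Socs3, a feedback inhibitor of cytokine signalling (3.07, SE 0.603), the receptor Il10ra (1.52, SE 0.343) and Sbno2 (1.04, SE 0.237). Il10 itself was not called. For this list and the next, the shares over all genes tested were 7.21% called higher and 16.0% in either direction. Of 13 tested genes of arginine and polyamine metabolism, 3 were called higher and 1 lower, and the change with the smallest adjusted p was in Arg2, the mitochondrial arginase, rather than Arg1. Arg2 was at 22.3 and 22.5 CPM in ABCG1KO and at 0.259 to 0.690 CPM in WT (5.68, SE 0.620, adjusted p = 0.000896, edgeR). The arginine transporter subunit gene Slc7a7 was higher by 1.31 (SE 0.205) and Sms, spermine synthase, changed by -1.40 (SE 0.235).

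Of 18 tested genes of classical activation, 6 were called higher in ABCG1KO than in WT and 0 lower, led by Marcksl1 (3.72, SE 0.592), the costimulatory molecule Cd86 (3.98, SE 0.667) and the formyl peptide receptor Fpr2 (6.64, SE 1.23). Of 17 other tested C-type lectins, 5 were called higher and 3 lower. For both of these lists, the shares over all genes tested were 7.21% called higher and 16.0% in either direction. Clec7a, the beta-glucan receptor Dectin-1, changed by -1.33 (SE 0.252), Clec12a by -1.03 (SE 0.200), and Clec4e, the receptor Mincle, by 4.85 (SE 0.963). Socs3, Clec7a, Nos2 and Slc7a2 each stand in 2 of the 6 lists.

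In LysM-DKO against ABCG1KO, the called genes of these lists were 1 higher and 2 lower for interleukin-4 and interleukin-13 signalling, 2 and 4 for the further targets, 0 and 1 around interleukin-10, 1 and 2 for arginine and polyamine metabolism, 0 and 5 for classical activation, and 3 and 7 for the lectins. Over all genes tested, 13.4% were called in either direction and 5.64% were called lower in LysM-DKO. The ABCG1KO libraries are shared with the comparison against WT.

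The genes whose levels were most like those of each marker over the 8 libraries were found by Pearson's correlation of log2(CPM + 1) among genes with a mean of at least 10 CPM, as a description. Arg1 was most like Flot1 (r = 0.979), Itgb7 (0.976) and Vsig4 (0.963), and Vsig4 is itself in the resident macrophage list. Vsig4 was at 21.8, 57.7 and 8.41 CPM in WT, at 3.56, 33.0 and 7.60 CPM in the LysM-DKO libraries and 38.4 and 54.3 CPM in ABCG1KO, a far narrower range than that of Arg1. Il4ra was most like Tgm2 (0.973), the transglutaminase gene that is also a marker of alternative activation, at 213 to 517 CPM in WT, 325 to 1178 CPM in LysM-DKO and 452 to 636 CPM in ABCG1KO. Il10 was most like C1ra (0.967), Ifi47 (0.925) and Gbp2 (0.924). Mgl2 was most like Clec10a (0.939), with which it shares sequence, and Clec10a was most like Bmp2 (0.956).

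Icam1 (0.987) was among the 3 genes most like Cd163. Retnla was most like Gm5148 (0.994) and Nfkbie (0.994), Chil3 most like Ppig (0.993), Mrc1 most like Vmp1 (0.892), and Egr2 most like Gfod1 (0.963). Over the 6 WT and LysM-DKO libraries alone, r was 0.918 for Cd163 with Icam1 and 0.987 for Chil3 with Ppig, and for Retnla, with at most 8 counts in each of them, it was 0.25 with Gm5148 and 0.45 with Nfkbie. The ABCG1KO libraries also have a higher share of reads with several alignments.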

How the data were processed

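The authors deposited raw read counts per gene symbol, made with HTSeq 0.11.2, for 8 libraries. The submitters' processing notes also name STAR 2.7.9a, TopHat, DESeq2 1.30.1 and limma, without their roles, and the build mm10, which is GRCm38. The annotation and the strand setting are not given in the sources used here. The 5 special lines of each file were left out: reads with several alignments were 2.65% to 6.93% of the reads counted, reads outside genes 4.26% to 13.8% and ambiguous reads 0.614% to 0.980%. The ABCG1KO libraries stood apart from the others in each of these shares. No count was changed.

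Counts were analysed with edgeR 4.0.16 in R 4.3.3: filterByExpr, TMM scaling, 1 quasi-likelihood fit with a term per group, the F test for each pair of groups, and Benjamini-Hochberg adjustment. The fit used robust weights for the prior spread. That option was not stated in the design and was taken after the fit with and without it had been seen, because it gives the counts of calls known from earlier results. The default fit calls 3, 2199 and 1869 genes where the robust fit calls 5, 2216 and 1853 (LysM-DKO against WT, ABCG1KO against WT, LysM-DKO against ABCG1KO), and it also calls Chil3 in the last.

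The 10 genes and the lists were chosen with earlier results of these data known. All 10 are named in every comparison, with at most 3 called genes of each list by adjusted p-value and the most alike genes. Genes named for their library order, as DESeq2 calls, as single markers or for their spread were named after their values were seen. The marker sums without Cd9, Itgax, Cd22 or Siglecf were not stated in the design. Gene positions and exon lengths are from GENCODE vM21, promoters and start sites from RefSeq. The fit was tested on simulated data. The limit for a count of 0 is 3 counts and covers counting error only, since the reads carry no molecular identifiers and may repeat a molecule. Alternatives were other scalings, filters, DESeq2 1.42.0, fits of 2 groups, a replicate block, and each library left out. A further 2 were added after the data were seen: the default weights, and leaving out WT 2 and LysM-DKO 2 together.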

Additional observations from a re-analysis of the deposited data

How the results depend on the processing

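Each result was recomputed under 17 alternatives where they gave a value. In the 16 that kept Retnla, its log2 fold change was 6.95 to 9.50 in ABCG1KO against WT and -10.5 to -8.75 in LysM-DKO against ABCG1KO. Of these, 2 leave 1 ABCG1KO library, assumed to vary like the other groups. Retnla, Chil3 and Il10 have no value under the filter of at least 10 counts per library, and Retnla and Chil3 none in the fit of LysM-DKO and WT alone. The replicate numbers did not pair the libraries throughout. Deviations from the group means of same-numbered libraries correlated at 0.04, 0.43 and -0.01 between LysM-DKO and WT. The values were -0.07 and -0.05 between ABCG1KO and WT, and 0.20 and -0.09 between LysM-DKO and ABCG1KO. The largest, 0.43, was that of WT 2 and LysM-DKO 2, and what these 2 libraries share was not tested. With the replicate number as a block, 1456 genes were called in ABCG1KO against WT, 1024 in LysM-DKO against ABCG1KO and 0 in LysM-DKO against WT, 1 of the 10 genes was called in LysM-DKO against ABCG1KO, and the log2 fold changes of Cd163 in LysM-DKO against WT and of Clec10a in LysM-DKO against ABCG1KO were -0.17 and -0.036. The cause of the changes below was not tested.

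Genes called in LysM-DKO against WT numbered 3 under the filter of at least 10 counts, 8 in the fit of the 2 groups, 3 with the default weights, 299 with DESeq2, 0 without WT 2 and LysM-DKO 2 together, and 0 (without WT 2, LysM-DKO 2 or LysM-DKO 3) to 8 (without ABCG1KO 1) with 1 library left out. In ABCG1KO against WT they numbered 853 without WT 2 and LysM-DKO 2 together, and 853 (without ABCG1KO 1) to 2090 with 1 library left out. In LysM-DKO against ABCG1KO they numbered 948 in the fit of the 2 groups, 683 without WT 2 and LysM-DKO 2 together, 2982 with DESeq2, and 561 (without ABCG1KO 1) to 1960 with 1 library left out. Of the 10 genes, 1 was called in ABCG1KO against WT with no filter and with at least 10 counts, 3 without WT 2 and LysM-DKO 2 together, and 1 to 2 with 1 library left out. In LysM-DKO against ABCG1KO, 1 was called with no filter, with at least 10 counts and in the fit of the 2 groups, and 1 to 2 with 1 library left out.

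Estimates changed sign for genes that were not called, on the log2 scale. In LysM-DKO against WT, Cd163 was at -0.021 with RLE factors, -0.022 with DESeq2, -0.014 in the fit of the 2 groups, -0.64 without WT 2 and LysM-DKO 2 together, and -1.42 to 0.76 with 1 library left out, and the estimate of Retnla, which rests on too few counts to be read as a change, was at 0.37 without both libraries. The ranges with 1 library left out were -2.32 to 0.50 for Clec10a, -1.53 to 0.28 for Il10, -2.98 to 0.20 for Mgl2 and -1.01 to 0.11 for Mrc1. In ABCG1KO against WT, Clec10a, Il10, Mgl2 and Mrc1 were at 0.49, 0.039, 0.17 and 0.11 without WT 2 and LysM-DKO 2 together, and Egr2 was at 0.018 with library size only. The ranges with 1 library left out were -0.55 to 3.23 for Arg1, -1.10 to 0.48 for Clec10a, -1.44 to 0.025 for Il10, -1.71 to 0.15 for Mgl2 and -1.31 to 0.10 for Mrc1. In LysM-DKO against ABCG1KO, Clec10a was at -0.00081 with RLE factors, -0.018 with library size only and -0.0025 with DESeq2, and Mrc1 at -0.00061, -0.041 and -0.00049. Without WT 2 and LysM-DKO 2 together, Clec10a, Egr2, Il10, Mgl2 and Mrc1 were at -1.71, 0.055, -0.57, -1.81 and -0.56. The ranges with 1 library left out were -1.73 to 0.58 for Clec10a, -0.42 to 0.035 for Egr2, -0.59 to 0.76 for Il10, -0.70 to 0.23 for Il4ra, -1.83 to 0.61 for Mgl2 and -0.58 to 0.90 for Mrc1.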
